A study of Mus musculus with 12 samples.

Results

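The enzymes examined here were those of the citric acid cycle and of mitochondrial fatty acid oxidation, with the aspartate and glutamate enzymes that feed the cycle. The 34 genes were taken by symbol from a table of 25745 genes, and all 34 were present. They comprised 16 genes of the cycle (Cs, Aco1, Idh1, Idh2, Idh3a, Idh3b, Idh3g, Ogdh, Dlst, Dld, Sucla2, Suclg1, Suclg2, Fh1, Mdh1 and Mdh2), 3 aspartate and glutamate enzymes (Got1, Got2 and Glud1) and 15 genes of fatty acid oxidation (Cpt1a, Cpt1c, Cpt2, Acadm, Acadl, Acads, Acadvl, Hadha, Hadhb, Hadh, Echs1, Acaa2, Etfa, Etfb and Etfdh). RNA was sequenced from primary vascular smooth muscle cells grown out of aortas of wild-type C57BL/6J mice aged 5 to 6 weeks and used between passages 5 and 8, after the adventitia and endothelium had been removed. There were 4 groups of 3 libraries. The libraries labelled Klotho came from cells in calcification medium, which held 3.0 mM sodium phosphate and was given for 7 days, that also received an αKlotho lentivirus. The vector libraries came from cells in the same medium with an empty lentivirus, the calcification libraries from cells in that medium without a virus, and the control libraries from cells in basal medium without a virus. The vector and control groups thus differed in medium and virus together, and these cannot be told apart in that comparison. Whether the replicates came from separate mice or separate dishes is not stated in the labels, and the error behind each p-value is therefore that between libraries, which may be technical.

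In the citric acid cycle, acetyl groups are joined to oxaloacetate by citrate synthase and oxidised stepwise back to oxaloacetate, yielding reduced cofactors for the respiratory chain. Long-chain fatty acids enter mitochondria as carnitine esters, made by carnitine palmitoyltransferase 1 on the outer membrane and turned back to acyl-CoA by Cpt2. They are then shortened by acyl-CoA dehydrogenases, hydratases, hydroxyacyl-CoA dehydrogenases and thiolases. Electrons from the acyl-CoA dehydrogenases pass to electron transfer flavoprotein, a dimer of Etfa and Etfb, and from there through Etfdh to ubiquinone. Smooth muscle cells draw on glycolysis as well as on these pathways, and all of these enzymes are encoded in the nucleus.

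The values are FPKM, fragment counts scaled to gene length and to the depth of the library, and the recovered depth was 16649000 to 20007000 fragments a library. Kl, the gene for αKlotho, was listed at 0 in 11 of 12 libraries and at a value of 1 fragment in the other, so the name of the lentiviral group rests on its label. Summed smooth muscle markers (9 genes) ran from 165 to 1380 FPKM and were lowest in replicate 1 of each group. Summed mesothelial markers (4 genes, led by Msln) were 31.7 to 97.7 FPKM in the libraries labelled Klotho, 37.1 to 111 in vector, 32 to 113 in calcification and 4.09 to 18.6 in control, and the 6 adventitial fibroblast markers summed to 906 to 1620 FPKM in the libraries labelled Klotho, 1010 to 1280 in vector, 621 to 1240 in calcification and 466 to 697 in control. The 6 macrophage markers summed to 24.8 to 106 FPKM over all libraries, the endothelial list to at most 9.27, the striated muscle list to at most 10.3 and the adipocyte list to at most 0.217. Msln, the adventitial marker Ly6a and the macrophage marker Csf1r rose in vector against control. Fold changes there were positive for 1 and negative for 3 of the 4 tested adventitial markers. For the 2 tested mesothelial markers 1 was positive and 1 negative, and all 4 tested macrophage markers were positive. A mesothelial marker also rose in calcification against control and in the Klotho label against control. The part of these markers in the results below was not tested. Control replicate 2 had the fewest genes detected, 14969 against up to 19361.

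Of the 34 enzymes 2 passed the test, both in vector against control, where 15.4% of all genes tested passed it; of the 15 genes of fatty acid oxidation they are 13.3%. Etfb, the smaller subunit of electron transfer flavoprotein, and Cpt1c, a carnitine palmitoyltransferase 1 of the endoplasmic reticulum that is best known from the brain and has little catalytic activity, rose in the vector libraries against control. Etfb averaged 9.70 ± 0.684 FPKM in vector and 4.78 ± 0.409 FPKM in control, and Cpt1c averaged 16 ± 0.384 FPKM in vector and 10.4 ± 0.388 FPKM in control (SD, n = 3 each). No citric acid cycle gene among the 34 passed it in any of the 6 comparisons, in 3 of which 0% of all genes passed. Sdhb, a cycle gene outside the 34, rose in vector against control and is described below. With replicates as a block Idh3b rose in vector against control (adjusted p = 0.0482, and 0.0899 with a GC and length correction as well, where Dlst was called, with 0.0402). In bulk RNA, fewer cells of a type and less RNA per cell cannot be told apart.

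The promoters of the 2 genes that rose are shown with those of Etfa and Cpt1a, which were not called in vector against control without the block. A difference in response between Etfb and Etfa or between Cpt1c and Cpt1a was not tested, nor was a part of the promoters in it. The windows are 300 bases long, 250 before and 50 after the gene start, from the RefSeq table on build GRCm38.p6, written in the direction of transcription. Capitals mark GC boxes, the letters GGGCGG on either strand, which the factor Sp1 is known to bind. Etfb is shown at chr7:43443822-43444121 on the plus strand, its partner subunit Etfa at chr9:55512194-55512493 on the minus strand, Cpt1c at chr7:44974802-44975101 on the minus strand and Cpt1a, the carnitine palmitoyltransferase 1 of most tissues, at chr19:3323051-3323350 on the plus strand.
Etfb: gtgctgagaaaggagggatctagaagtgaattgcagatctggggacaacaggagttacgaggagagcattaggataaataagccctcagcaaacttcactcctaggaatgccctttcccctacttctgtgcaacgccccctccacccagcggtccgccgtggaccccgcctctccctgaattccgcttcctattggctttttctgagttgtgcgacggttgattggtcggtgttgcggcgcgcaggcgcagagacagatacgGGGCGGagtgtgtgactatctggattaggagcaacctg
Etfa: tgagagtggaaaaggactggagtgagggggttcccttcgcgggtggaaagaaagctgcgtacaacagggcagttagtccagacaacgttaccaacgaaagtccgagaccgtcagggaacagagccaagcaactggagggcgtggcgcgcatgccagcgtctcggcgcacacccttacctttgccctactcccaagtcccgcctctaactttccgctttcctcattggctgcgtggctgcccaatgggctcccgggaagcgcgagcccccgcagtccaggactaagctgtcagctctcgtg
Cpt1c: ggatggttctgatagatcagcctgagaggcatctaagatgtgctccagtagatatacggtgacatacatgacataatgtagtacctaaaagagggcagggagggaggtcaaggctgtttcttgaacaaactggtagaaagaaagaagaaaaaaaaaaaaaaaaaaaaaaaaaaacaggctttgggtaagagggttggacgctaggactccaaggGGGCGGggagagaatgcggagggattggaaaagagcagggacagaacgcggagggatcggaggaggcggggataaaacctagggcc
Cpt1a: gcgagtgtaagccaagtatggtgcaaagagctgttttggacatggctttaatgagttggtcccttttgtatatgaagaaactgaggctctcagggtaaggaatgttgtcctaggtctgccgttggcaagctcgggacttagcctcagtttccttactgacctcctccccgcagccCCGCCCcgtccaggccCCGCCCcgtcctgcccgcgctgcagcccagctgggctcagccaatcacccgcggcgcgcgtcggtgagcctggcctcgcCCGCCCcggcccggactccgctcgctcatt
The Etfb window held 1 GC box at positions 263 to 268, the Cpt1c window 1 at positions 215 to 220, and the Cpt1a window 3, all on the reverse strand, at positions 176 to 181, 192 to 197 and 271 to 276, counted from 1 at the 5′ end. No GC box was found in the Etfa window. Promoters were matched for 32 of the 34 genes, and 23 of these held a GC box, against 35.7% of all 32851 promoters in the table. The GABP motif CCGGAAG was in 5 (Cpt2, Dlst, Glud1, Idh3b and Idh3g, against 8.86% of all), the E box CACGTG in Ogdh (7.15% of all), the NRF1 motif in Etfdh (0.971% of all) and the ERR motif TNAAGGTCA in 0 (1.28% of all). Both strands were searched for each motif, and motif matches were allowed to overlap. A gene of the 34 was counted if any of its windows held the motif, while the shares of all are of single windows. The windows of the table were also not limited to genes tested here. The counts and shares are thus unlike measures, and an excess of a motif was not tested.

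Differences between groups were tested with limma on log2(FPKM + 1) over the 10758 genes that averaged 1 FPKM or more, which all 34 enzymes passed, and a gene was called at a Benjamini-Hochberg adjusted p under 0.05. Fold changes are on this log2(FPKM + 1) scale, so that those of genes with low values come out smaller than their true ratio. In vector against control 2 of the 34 rose and 0 fell (5.88% called), against 15.4% called among all genes tested (7.44% higher and 7.98% lower). Same-numbered libraries deviated together in this comparison, and with the replicate number as a block 5 rose and 1 fell, against 29.8% called among all genes (15.8% higher and 14% lower). The added risers were Idh3b, Acads and Acaa2, and Cpt1a fell. With the block and the GC and length correction together these 4 were not called (adjusted p of 0.0899, 0.347, 0.464 and 0.0758), and the calls were Etfb (0.0222), Cpt1c (0.0118) and Dlst (0.0402) as higher and Glud1 (0.0473) as lower. Without the vector replicate 1, the vector replicate 2, the control replicate 2 or the control replicate 3, in each case 0 of the 34 were called. The share of all genes called in these fits is not given here. Over the 12 fits with 1 library left out, the log2 fold change was 0.84 to 0.94 for Etfb and 0.56 to 0.61 for Cpt1c. Calls among the surrounding genes described below ranged from 3 to 27 over those fits.

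In calcification against control 0 of the 34 were called, against 0.706% of all genes (3.91% with the block), and in the libraries labelled Klotho against control 0 were called, against 0.772% (4.81% with the block). In vector against calcification, the libraries labelled Klotho against calcification and the libraries labelled Klotho against vector, limma called 0 of the 34 and 0% of all genes. At an unadjusted p under 0.05 the counts among the 34 were 2 in calcification against control, 2 in the Klotho label against control, 0 in vector against calcification, 2 in the Klotho label against calcification and 2 in the Klotho label against vector, against 11.5%, 14.9%, 14.1%, 3.13% and 14.1% of all genes. With limma-voom on recovered fragments 0 of the 34 were called in these 5 comparisons. A test for any difference among the 4 groups called Etfb alone (adjusted p = 0.0468), against 1% of all genes, and with the block Etfb (0.0134) and Cpt1c (0.0448), against 10.1%. The count of this test changed under 19 of 23 alternatives. The 6 comparisons share libraries, so their values are not independent.

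**Figure D1:**
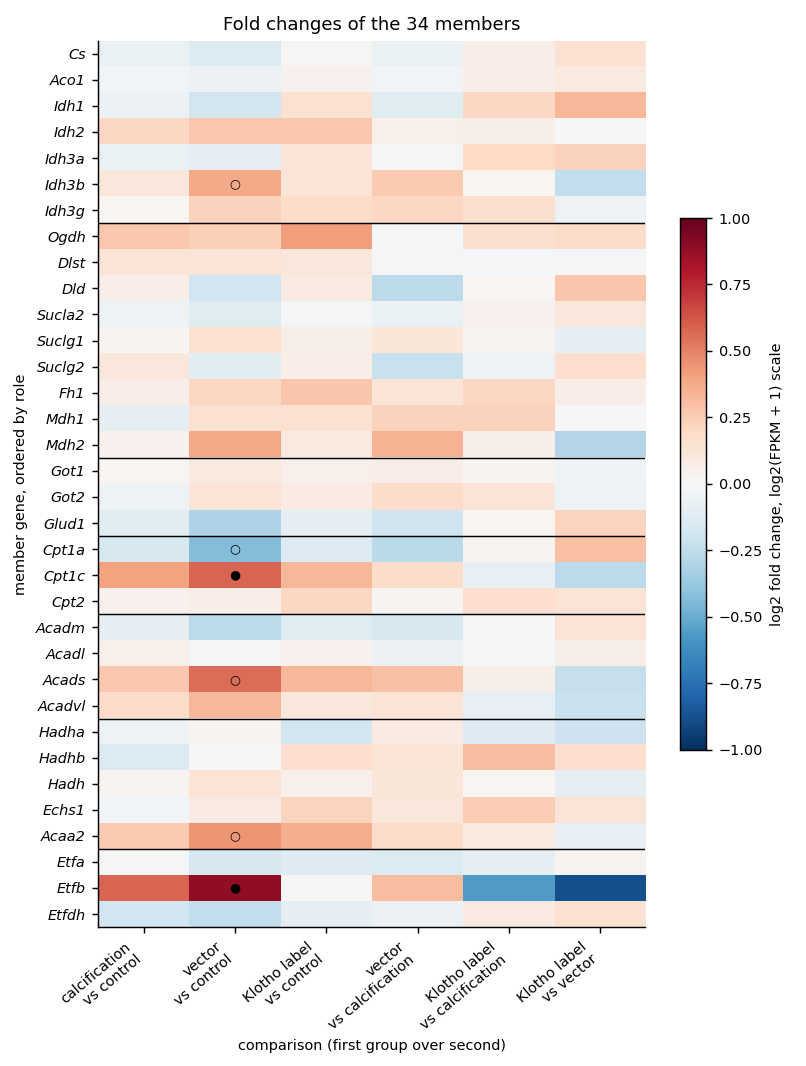
Log2 fold changes (log2(FPKM + 1) scale, colour) of the 34 genes in rows, ordered by role with lines between roles, in the 6 comparisons in columns, first group over second; filled circles mark calls at an adjusted p under 0.05 and open circles calls gained with the replicate block. Marks appear in the vector against control column alone: Etfb and Cpt1c are filled, and Idh3b, Cpt1a, Acads and Acaa2 are open.

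The sizes of change show how much these data allow. The 95% intervals of the fold change are on the log2(FPKM + 1) scale. They lay within 2-fold in either direction for 34 of the 34 genes in calcification against control and the Klotho label against control. They also did so for 34 in vector against calcification and the Klotho label against calcification. They did so for 32 in vector against control, all but Acads and Etfb, and for 33 in the Klotho label against vector, all but Etfb. For Etfb the interval reached 0.95 in calcification against control and -0.94 in the Klotho label against calcification. At its low values these bounds can lie beyond 2-fold in FPKM itself. Among all genes tested the share within 2-fold on this scale was 78.1% in vector against control and 89.4% in the Klotho label against vector. The median absolute log2 fold change of the 34 was 0.17 in vector against control, against 0.296 for all genes, and 0.072 in calcification against control, against 0.154. The 34 lay at higher levels than most genes tested. Their median log2(FPKM + 1) averaged 4.07 over the 12 libraries, against 2.95 for all genes tested. No background matched for level was used, so these medians and intervals are not compared at like levels. The signed medians were small: 0.09 in vector against control, where that of all genes was 0.04, 0.09 in the Klotho label against control (0.03), and 0.03 in calcification against control (0.04).

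Of the genes of electron transfer flavoprotein, Etfb varied most, with a highest library 2.58 times its lowest. Etfb was listed at 3.95, 5.24 and 5.37 FPKM in the libraries labelled Klotho, at 10.2, 10.0 and 8.92 in vector, at 5.60, 9.65 and 8.12 in calcification and at 5.17, 4.81 and 4.36 in control. All 3 vector libraries lay above all control libraries and above all libraries labelled Klotho, and the calcification libraries overlapped with vector but not with control. The log2 fold change of vector against control was 0.89 ± 0.17 (SE; limma adjusted p = 0.0151), and with a correction for GC content and gene length it was 0.44 (adjusted p = 0.0839). Without 1 of the vector replicates 1 and 2 or the control replicates 2 and 3 the adjusted p of Etfb was 0.0585, 0.0542, 0.0511 and 0.0613, with fold changes of 0.84 to 0.94 over all libraries left out in turn. Against vector Etfb differed in the libraries labelled Klotho by -0.88 ± 0.17 on the log2 scale without passing the test (adjusted p = 0.17), and against calcification by -0.57 (adjusted p = 1, unadjusted p = 0.00609). In calcification against control it differed by 0.58 ± 0.17 (adjusted p = 0.217). Etfb had the lowest fragment count of the 34, 81 to 206 fragments a library, and no other gene of the table overlaps its exons.

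Its partner subunit did not show this pattern. Etfa was listed at 33.0, 29.3 and 29.7 FPKM in the libraries labelled Klotho, at 27.3, 33.8 and 28.8 in vector, at 35.2, 34.1 and 29.9 in calcification and at 34.6, 34.9 and 31.2 in control. These groups all overlap. The ratio of Etfb to Etfa, both in FPKM, was 0.372, 0.296 and 0.31 in vector and 0.149, 0.138 and 0.14 in control, and 0.12, 0.179 and 0.181 in the libraries labelled Klotho against 0.159, 0.283 and 0.272 in calcification. Etfdh, the oxidoreductase that hands these electrons to ubiquinone, was listed at 3.77, 4.18 and 4.05 FPKM in the libraries labelled Klotho, at 3.22, 3.72 and 3.61 in vector, at 3.79, 3.48 and 3.82 in calcification and at 3.82, 4.94 and 4.37 in control. Its vector libraries all lay below its control libraries, with a log2 fold change of -0.25 that did not pass the test (adjusted p = 0.135).

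Of the carnitine palmitoyltransferases, Cpt1c and Cpt1a had fold changes of opposite sign in vector against control. Cpt1c was listed at 10.6, 14.5 and 15.0 FPKM in the libraries labelled Klotho, at 16.1, 15.6 and 16.3 in vector, at 12.7, 14.2 and 15.3 in calcification and at 10.8, 10.0 and 10.3 in control. The vector and calcification libraries lay above all control libraries, and replicate 1 of the Klotho label lay among the controls. The log2 fold change of Cpt1c was 0.58 ± 0.13 in vector against control (adjusted p = 0.0228; 0.0375 with the GC and length correction), 0.40 ± 0.13 in calcification against control (adjusted p = 0.254) and 0.33 in the Klotho label against control (adjusted p = 0.28). Left out 1 at a time, the vector replicates 1 and 2 and the control replicates 2 and 3 gave an adjusted p of 0.0752, 0.0617, 0.0755 and 0.0731. Exons of Cpt1c overlap those of 6530437J22Rik on the opposite strand, and whether the counting used strand is not given in the sources used here.

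Cpt1a, whose product is the main control point of long-chain fatty acid entry, was listed at 19.8, 15.8 and 13.1 FPKM in the libraries labelled Klotho, at 12.6, 12.2 and 13.6 in vector, at 20.9, 13.9 and 13.1 in calcification and at 18.3, 17.1 and 17.2 in control. All vector libraries lay below all control libraries, while replicate 1 was the highest in the Klotho label and in calcification. The log2 fold change in vector against control was -0.43 (adjusted p = 0.107, and 0.0468 with the replicate block). The ratio of Cpt1c to Cpt1a in FPKM was 1.28, 1.28 and 1.2 in vector and 0.588, 0.587 and 0.597 in control, with 0.537, 0.922 and 1.15 in the Klotho label and 0.604, 1.03 and 1.17 in calcification. Cpt2, the inner-membrane enzyme, had group means of 12 to 14 FPKM and was called in 0 comparisons.

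**Figure D2:**
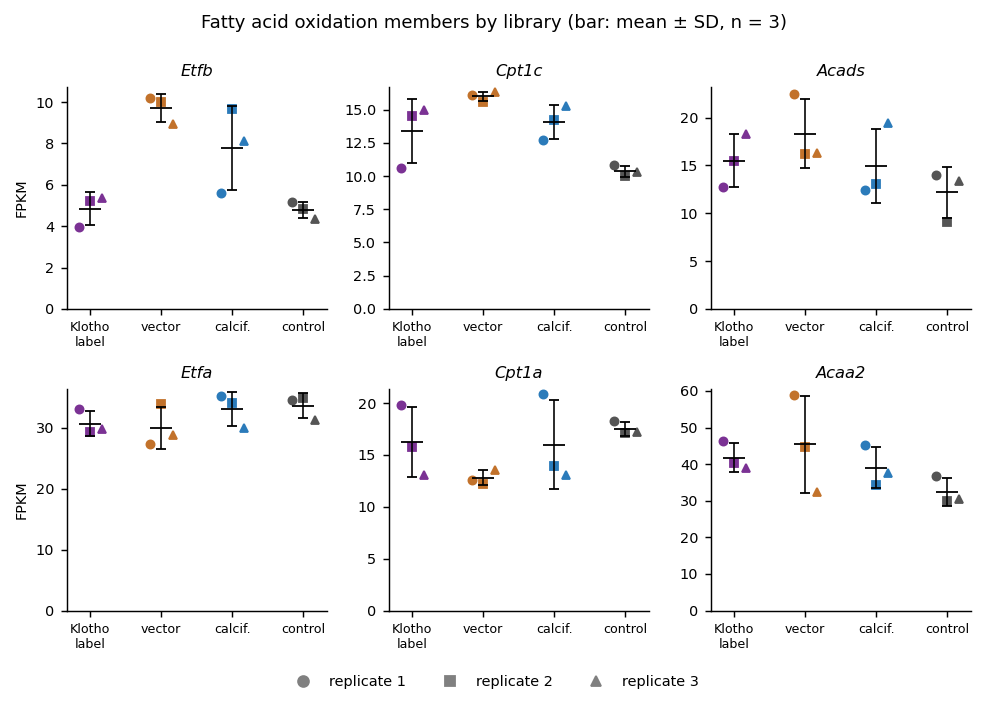
FPKM of 6 fatty acid oxidation genes in each library (points, shape by replicate) with mean and SD (bars, n = 3) for the libraries labelled Klotho, vector, calcification and control. Etfb reaches 10.2 FPKM in vector with all control libraries at 5.17 or below, Cpt1c is at 15.6 or above in vector and at 10.8 or below in control, and Etfa overlaps between all groups.

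The acyl-CoA dehydrogenases, which take the first step of each round, differ in the chain length they prefer. Acads, the short-chain enzyme, was listed at 12.7, 15.5 and 18.3 FPKM in the libraries labelled Klotho, at 22.5, 16.2 and 16.3 in vector, at 12.4, 13.1 and 19.4 in calcification and at 14, 9.13 and 13.4 in control. The vector libraries lay above the control libraries, and the log2 fold change of 0.56 had an adjusted p of 0.0853 (0.0472 with the replicate block). With the GC and length correction it was 0.18. Acadvl, the very long-chain enzyme, was listed at 17.4, 23.9 and 23.5 FPKM in the libraries labelled Klotho, at 23.0, 26.8 and 25.7 in vector, at 18.5, 23.7 and 26.6 in calcification and at 20.3, 20 and 19.1 in control. Its vector libraries too lay above its control libraries, with a log2 fold change of 0.33 (adjusted p = 0.144). The medium-chain enzyme Acadm had group means of 9.69 to 11.8 FPKM and the long-chain enzyme Acadl of 35.3 to 36.8 FPKM, and both overlapped between all groups.

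Of the later steps, Acaa2, the mitochondrial 3-ketoacyl-CoA thiolase, was listed at 46.2, 40.3 and 38.9 FPKM in the libraries labelled Klotho, at 59.0, 44.8 and 32.5 in vector, at 45.2, 34.4 and 37.5 in calcification and at 36.8, 29.9 and 30.4 in control. Replicate 1 was the highest library in each of the 4 groups, and the libraries labelled Klotho lay above all control libraries. The log2 fold change of Acaa2 in vector against control was 0.44 (adjusted p = 0.122, 0.0305 with the replicate block, and 0.12 on the log2 scale with the GC and length correction). Hadhb, the thiolase subunit of the trifunctional protein, was listed at 12.9, 14.2 and 13.8 FPKM in the libraries labelled Klotho, at 11.4, 13.3 and 11.2 in vector, at 10.6, 9.74 and 11.9 in calcification and at 11.2, 13.6 and 11.2 in control. The libraries labelled Klotho lay above the calcification libraries by 0.31 on the log2 scale, with an adjusted p of 1 (unadjusted p = 0.0232). Hadha, the other subunit of that complex, had group means of 13.4 to 15.8 FPKM, Hadh of 7.68 to 8.56 and Echs1 of 6.69 to 8.10.

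In the citric acid cycle from citrate to oxoglutarate, the isocitrate dehydrogenases lay nearest to a difference. Idh3b, a regulatory subunit of the NAD-dependent enzyme, was listed at 23.3, 27.4 and 32.3 FPKM in the libraries labelled Klotho, at 35.2, 31.6 and 31.4 in vector, at 25.6, 24.7 and 31.5 in calcification and at 26.7, 23.9 and 24.4 in control. The vector libraries lay above the control libraries, and the log2 fold change of 0.38 had an adjusted p of 0.0759 (0.0482 with the replicate block). Exons of Idh3b overlap those of Nop56. Idh1, the cytosolic NADP-dependent enzyme, was listed at 69.6, 58.1 and 57.0 FPKM in the libraries labelled Klotho, at 49.7, 51.4 and 45.2 in vector, at 60.6, 49.9 and 48.7 in calcification and at 54.6, 52.4 and 58.6 in control. The vector libraries were below both the control libraries and the libraries labelled Klotho, by a log2 difference of -0.18 for vector against control (adjusted p = 0.321) and 0.33 for the Klotho label against vector (adjusted p = 0.297). Group means were 36.6 to 40.6 FPKM for citrate synthase Cs, 12.4 to 13.4 for the cytosolic aconitase Aco1, 28.5 to 34.2 for the mitochondrial NADP-dependent Idh2, 11.1 to 13.2 for Idh3a and 23.0 to 27.4 for Idh3g.

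From oxoglutarate to oxaloacetate, Ogdh and Mdh2 stood nearest to a difference. Ogdh, the first component of the oxoglutarate dehydrogenase complex, was listed at 47.8, 56.9 and 59.0 FPKM in the libraries labelled Klotho, at 53.6, 43.6 and 47.0 in vector, at 48.9, 46.9 and 50.4 in calcification and at 37.8, 38.5 and 45.1 in control. The libraries labelled Klotho and the calcification libraries all lay above the control libraries. The log2 fold change of Ogdh was 0.42 ± 0.12 in the Klotho label against control (unadjusted p = 0.00582, limma adjusted p = 0.164) and 0.27 in calcification against control (adjusted p = 0.454). Mdh2, the mitochondrial malate dehydrogenase, was listed at 57.3, 65.3 and 81.7 FPKM in the libraries labelled Klotho, at 88.5, 82.3 and 78.0 in vector, at 50.6, 63.4 and 84.0 in calcification and at 61.4, 62.4 and 64.7 in control. All vector libraries lay above all control libraries, at a log2 fold change of 0.39 (adjusted p = 0.135). The other components of the dehydrogenase complex, Dlst and Dld, had group means of 13.1 to 14.5 and 10.1 to 12.3 FPKM. The succinyl-CoA synthetase subunits Sucla2, Suclg1 and Suclg2 had means of 9.79 to 10.8, 10.6 to 11.9 and 5.49 to 6.53 FPKM, fumarase Fh1 of 14.6 to 17.9 and the cytosolic Mdh1 of 53.0 to 62.7.

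Glutamate dehydrogenase Glud1, which makes oxoglutarate from glutamate, was the most abundant of the 34 per length, with a mean of 274 FPKM over the 12 libraries, ahead of Mdh2 at 70.0. It was listed at 303, 321 and 217 FPKM in the libraries labelled Klotho, at 227, 284 and 207 in vector, at 299, 329 and 207 in calcification and at 282, 351 and 259 in control. The groups overlap, and replicate 3 was the lowest and replicate 2 the highest in every group. Got2, the mitochondrial aspartate aminotransferase, was listed at 38.3, 40 and 51.1 FPKM in the libraries labelled Klotho, at 54.0, 37.2 and 43.3 in vector, at 35, 34 and 49.7 in calcification and at 42.5, 38.7 and 40.4 in control, again with overlap between all groups. Its cytosolic counterpart Got1 had group means of 23.6 to 25.3 FPKM.

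Counts of genes whose groups did not overlap give the same comparison without a model. In vector against control 6 of the 34 lay wholly higher (Etfb, Cpt1c, Acads, Acadvl, Idh3b and Mdh2) and 3 wholly lower (Cpt1a, Etfdh and Idh1), against 22.4% and 19.1% of all genes tested. Against vector 7 lay higher in the libraries labelled Klotho (Aco1, Cpt2, Cs, Etfdh, Idh1, Idh3a and Sucla2) and 2 lower (Cpt1c and Etfb), against 11.3% and 10.4%. In calcification against control 3 lay higher (Cpt1c, Etfb and Ogdh) and 0 lower, against 9.19% and 5.52%. In the Klotho label against control 2 lay higher (Acaa2 and Ogdh) and 0 lower (11% and 8.83% of all genes), in vector against calcification 2 higher (Cpt1c and Mdh1) and 0 lower (6.11% and 11.3%), and in the Klotho label against calcification 2 higher (Hadhb and Mdh1) and 2 lower (Etfb and Hadha; 3.2% and 4.26%).

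Set beside these nuclear genes, the 13 protein-coding transcripts of the mitochondrial genome, which encode subunits of the respiratory chain and of ATP synthase, had larger fold changes in vector against control. They made up 2.66%, 2.62% and 2.26% of summed FPKM in the libraries labelled Klotho, 1.72%, 1.53% and 1.19% in vector, 1.9%, 2% and 1.89% in calcification and 2.06%, 2.75% and 2.16% in control. The vector libraries were lowest, without overlap with any other group. The 34 enzymes together made up 0.344%, 0.351% and 0.324% in the libraries labelled Klotho, 0.309%, 0.318% and 0.305% in vector, 0.344%, 0.353% and 0.316% in calcification and 0.33%, 0.356% and 0.343% in control. Here too the vector libraries lay below the control libraries, and vector and calcification overlapped. In FPKM itself the 34 summed to 1040 ± 60 in vector and 1020 ± 20 in control (SD, n = 3 each), and the total that serves as denominator was 316817 to 345456 FPKM in vector and 290562 to 310139 in control.

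In vector against control 4 of the 13 mitochondrial transcripts fell and 0 rose (7.98% of all genes tested fell), and 13 of 13 fold changes were negative, with a median of -0.62 on the log2 scale. Of all genes tested 53.9% had a positive fold change there. The mitochondrial transcripts that fell were mt-Nd5 (244 ± 9.62 FPKM in vector and 532 ± 69.4 in control, log2 -1.11, adjusted p = 0.00422), mt-Nd6 (-0.87), mt-Nd3 (-0.82) and mt-Atp6 (-0.65). The first 3 encode complex I subunits and the last an ATP synthase subunit. Of these, mt-Nd3 averaged 1.37 FPKM in vector and 3.23 in control, and mt-Atp6 averaged 10 and 16. The far more abundant mt-Co1 averaged 2260 FPKM in vector and 2900 in control and was not called (limma adjusted p = 0.181). Against vector 0 of the 13 and 0% of all genes tested were called in the libraries labelled Klotho. The 13 had 12 positive fold changes, where 48.8% of all genes were positive, and a median of 0.70, where the median of the 34 enzymes was 0.05. In calcification against control 0 were called and the median was -0.23, and with the replicate block 2 fell, mt-Nd5 (adjusted p = 0.0342) and mt-Nd6 (0.0105). In the Klotho label against control mt-Nd6 fell with the block (adjusted p = 0.04). When each library was rescaled to its total without mitochondrial transcripts, the median of all genes in vector against control moved to -0.10, and that of the 34 to -0.07, with 11 positive fold changes in place of 20. Etfb and Cpt1c were called as higher under that scaling as well.

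**Figure D3:**
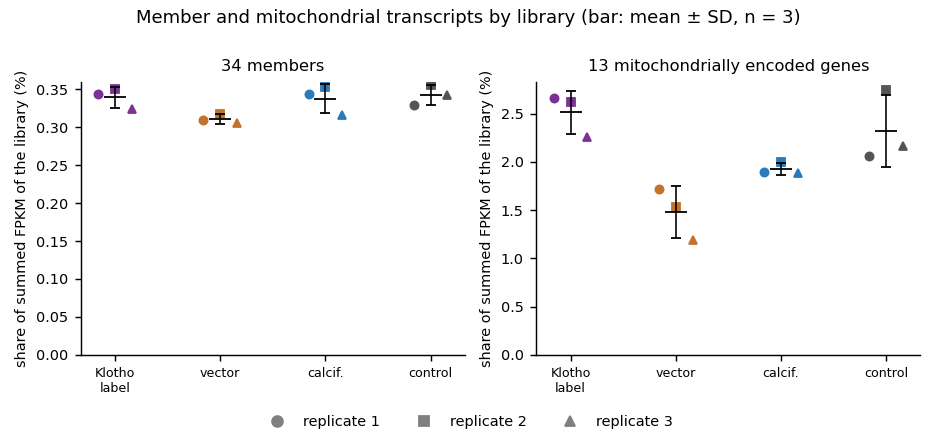
Share of summed FPKM (%) taken by the 34 enzymes (left) and by the 13 mitochondrially encoded genes (right) in each library (points, shape by replicate), with mean and SD (bars, n = 3) for the libraries labelled Klotho, vector, calcification and control. The mitochondrial share is 1.48 ± 0.269% in vector and 2.32 ± 0.373% in control, and the share of the 34 is 0.311 ± 0.00666% in vector and 0.343 ± 0.013% in control.

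Several of the 34 varied with the replicate number more than with the group. The median share of the sum of squares that lay between groups was 34.6% for the 34 and 40.7% for all genes tested, and the share between replicate numbers was 25% and 19.8%. The same replicate number was highest in all 4 groups for 7 of the 34 (20.6%), against 15.3% of all genes. These were Idh2, Cs and Dlst in replicate 3, Glud1, Acadm and Sucla2 in replicate 2 and Acaa2 in replicate 1. The same number was lowest in all 4 groups for 3 (8.82%, against 15.7% of all genes), namely Idh2 and Fh1 in replicate 2 and Glud1 in replicate 3. The labels do not say what a replicate number marks.

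Idh2 and Acadm show this most plainly. Idh2 was listed at 27.8, 25.6 and 49.2 FPKM in the libraries labelled Klotho, at 33.9, 28.3 and 36.4 in vector, at 30.4, 25.1 and 40.7 in calcification and at 23.7, 19.4 and 42.2 in control. Acadm was listed at 9.95, 12.9 and 9.38 FPKM in the libraries labelled Klotho, at 8.29, 11.9 and 8.86 in vector, at 9.25, 13.8 and 9.94 in calcification and at 9.46, 14.1 and 11.9 in control. Between replicate numbers lay 76.5% of the sum of squares of Idh2 and 77.1% of that of Acadm, against 9.48% and 16.4% between groups. Etfb and Cpt1c were the reverse, with 82.5% and 75.9% between groups and 5% and 8.19% between replicate numbers. Etfb and Cpt1c were called for a group difference in these same libraries, and Idh2 and Acadm were named for their replicate shares. The contrast follows in part from that choice and is a description only.

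**Figure D4:**
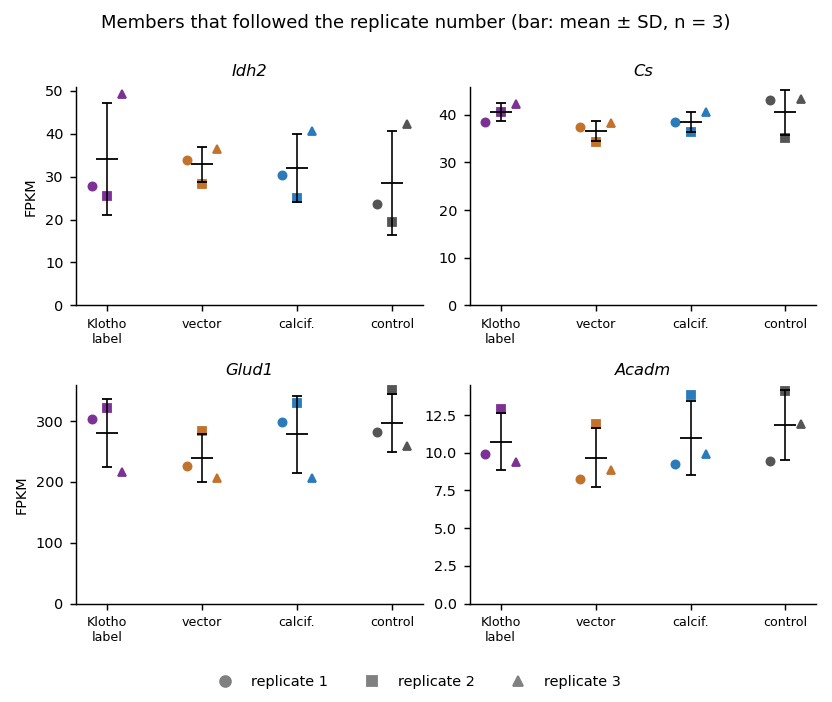
FPKM of Idh2, Cs, Glud1 and Acadm in each library (points, shape by replicate) with mean and SD (bars, n = 3) for the libraries labelled Klotho, vector, calcification and control. Replicate 3 is the highest in every group for Idh2 and Cs, and replicate 2 for Glud1 and Acadm.

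Genes around these pathways, from lists chosen with earlier results of these data known, were called in vector against control as follows, beside 7.44% of all genes tested called higher and 7.98% called lower. Over the 9 lists other than that of mitochondrial transcripts 24 genes were called, and 7 with the GC and length correction. The count was 6 without vector replicate 1, 5 without vector replicate 2, 5 without control replicate 2, 3 without control replicate 3 and 8 without a filter on low values. Of 14 tested genes of fatty acid uptake and activation 5 fell and 0 rose: Fabp5, a fatty acid carrier (18.3 ± 3.67 FPKM in vector and 41.4 ± 6.31 in control, log2 -1.14), the acyl-CoA synthetases Acsl1 (-0.76), Acsl3 (-0.67) and Acsl4 (-0.59), and Acaca (-0.68), which makes malonyl-CoA, the inhibitor of carnitine palmitoyltransferase 1. With the GC and length correction Fabp5 alone was called. With the replicate block Fabp3 and Slc27a1, a fatty acid carrier and a transporter, rose as well, beside 15.8% of all genes called higher with the block. Of 18 other mitochondrial β-oxidation enzymes 4 rose, Hsd17b10 (0.66), Acad8 (0.61), Acaa1a (0.57) and Decr1 (0.52), and 1 fell, Acadsb (-0.87); with the correction Acad8 and Decr1 were called. Acad8 and Acadsb act on branched-chain substrates, Decr1 on unsaturated fatty acids, and Acaa1a is a thiolase of peroxisomes. Of 10 peroxisomal β-oxidation genes Abcd3, a transporter of the peroxisomal membrane, fell (-0.54; adjusted p = 0.0846 with the correction).

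At the entry to the cycle 3 of 14 pyruvate genes fell in vector against control and 0 rose. These were Pdha1, a subunit of pyruvate dehydrogenase (-0.68), its inhibitory kinase Pdk1 (-1.33) and Pdpr, a regulator of its phosphatase (-0.85), and all 3 were called with the correction. Pdk1 averaged 0.677 FPKM in the libraries labelled Klotho and 0.998 in vector, so it reached the filter of 1 FPKM mainly through the control libraries, where it was highest. Pdk1 also fell in calcification against control (1.10 ± 0.245 FPKM in calcification and 4.15 ± 1.63 in control, log2 -1.24, adjusted p = 0.0362) and in the Klotho label against control (-1.57, adjusted p = 0.011). Fabp5 was the other list gene that fell in both of those comparisons, with log2 fold changes of -1.31 in calcification (adjusted p = 0.0083) and -0.97 in the Klotho label (adjusted p = 0.0341), and no other gene of the lists of metabolism and its regulators was called there without the block. The 3 comparisons share the control libraries. Of 7 tested cycle genes outside the 34, Sdhb, the iron-sulphur subunit of succinate dehydrogenase, rose in vector against control (57.3 ± 4.41 FPKM in vector and 33.9 ± 3.82 in control, log2 0.74, adjusted p = 0.0292, and 0.0644 with the correction).

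Of 13 genes of anaplerosis and metabolite exchange, the dicarboxylate carrier Slc25a10 (0.65) and the mitochondrial phosphoenolpyruvate carboxykinase Pck2 (0.77) rose in vector against control, with an adjusted p of 0.171 and 0.0549 under the correction. With the block the malic enzyme Me3 and the glutamate carrier Slc25a22 rose too, where 15.8% of all genes tested were called higher and 14% lower. Of 14 regulators Pparg rose (0.72), and Hif1a (-0.76) and the mitochondrial transcription factor Tfb2m (-0.63) fell, a share of 21.4% beside 15.4% of all genes, and none of the 3 was called with the correction. With the block Esrra, a nuclear receptor known to regulate oxidative metabolism, rose and Gabpa fell. Of 23 general mitochondrial protein genes the chaperonin subunit Hspe1 (0.69) and the prohibitin Phb2 (0.71) rose and 0 fell (8.7% of the list, beside 7.44% of all genes called higher), and neither was called with the correction. Of the 23 fold changes 21 were positive, where 53.9% of all genes tested had a positive fold change. With the block Tomm40, Phb and Clpp rose as well, so that 21.7% of the list was called, beside 15.8% of all genes called higher. In vector against calcification, the Klotho label against calcification and the Klotho label against vector no gene of these lists was called.

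Calls in vector against control moved with gene length and base composition across the table. Over the genes tested Pearson's r of the log2 fold change was 0.383 against GC content and -0.428 against log2 exon length, as a description over genes that are not independent. With a correction for both, 551 genes were called in place of 1658, and of the 34 enzymes Cpt1c alone. The share of calls that were higher was 48.3% as deposited, 29.2% with upper quartile scaling and 22.6% with rescaling to the total without mitochondrial transcripts. With replicates 2 and 3 alone Etfb (adjusted p = 0.0259) and Cpt1c (0.0331) were called in vector against control, as with all libraries.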

How the data were processed

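RNA of 12 libraries of mouse aortic smooth muscle cells, 3 in each of 4 groups, was sequenced. The submitters' processing notes name CASAVA 1.8.2, STAR 2.4, DESeq2 3.12 and the builds GRCm38 and GRCm39, with no role for each, and the positions in the table carry no build. The authors deposited 1 table of 12 libraries, whose values were taken as FPKM per the file headers. With exon lengths for 99.2% of genes, 98.07% to 98.35% of values under 100 fragments came out within 0.05 of a whole fragment (10% by chance), and that step gave the depth. The total of a library limits the precision of low genes only, and p-values cover the spread between libraries.

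The genes and lists were chosen with earlier results of these data known. Genes that averaged 1 FPKM or more were tested on log2(FPKM + 1) with limma 3.58.1 (trend, all 12 libraries, 1 coefficient per group; R 4.3.3) with Benjamini-Hochberg adjustment over 10758 genes. A pseudocount of 1 was used. Per-library values are given for genes called with or without the replicate block and for those with the 2 smallest p of the F test in each role; of other lists, genes called with or without the block are named, except a few that are not reported here. Same-numbered libraries deviated together in calcification against control (correlations of 0.199 to 0.509), vector against control (0.403 to 0.537), the Klotho label against control (0.242 to 0.571) and the Klotho label against calcification (0.573 to 0.731), so the numbers pair those libraries. The alternatives were another pseudocount, other filters and scalings, limma-voom, with scaling by the trimmed mean of M values, on fragments recovered from the deposited values, a replicate block, a GC and length correction, replicates 2 and 3 alone, and each library left out. The limma step was also tested on simulated counts of fragments with known fold changes. Promoter sequences are RefSeq's on GRCm38.p6.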

Additional observations from a re-analysis of the deposited data

How the results depend on the processing

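In calcification against control, the Klotho label against control, vector against calcification, the Klotho label against calcification and the Klotho label against vector, the count of called enzymes was 0 of 34 under all 24 alternatives tried. In vector against control, where the count was 2, it was 6 with the replicate block, 1 with the GC and length correction, 4 with the replicate block and that correction together (Etfb, Cpt1c, Dlst and Glud1), and 0 to 3 with each library left out; Cpt1c was called under 20 of the 24 alternatives and Etfb under 19. The test for any difference among the 4 groups, with a count of 1, gave 2 with the replicate block and 0 without a filter, with upper quartile scaling, centred on the median, rescaled without mitochondrial genes, with limma-voom, with the GC and length correction and with replicates 2 and 3 alone, and 0 to 1 with each library left out; the cause was not tested. Of the 13 mitochondrial transcripts, 4 were called in vector against control, against 1 without a filter, 2 with limma-voom, 7 with the replicate block and GC and length correction, and 1 to 5 with each library left out. In calcification against control 0 became 2 with the replicate block, with or without the correction, and 0 to 1 with each library left out, and in the Klotho label against control 0 became 1 with the block and 2 with both. In vector against calcification and in the Klotho label against vector the numbers did not pair the libraries in replicate 3 (correlations of -0.063 and 0.006), and the block left both counts of called enzymes at 0. Count models on raw counts were planned for a table of counts and were not run, since the table holds none. All alternatives run were planned. At this depth Etfb rests on 81 to 206 fragments a library, the fewest of the 34, so relative counting error is largest there, while the standard error between libraries was largest for Idh2 (0.30, against 0.17 for Etfb).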

Other observations

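The genes outside the 34 whose levels over the 12 libraries were most like the mean of the standardised enzyme levels were Eef1e1 (Pearson r = 0.943), Rpl7-ps9 (0.93), Ccndbp1 (0.912), Apoo (0.912) and 1110046J04Rik (0.907). This is a description over libraries that share groups and replicate numbers. Eef1e1, a factor of the multi-tRNA synthetase complex, averaged 6.85 ± 1.21 FPKM in the libraries labelled Klotho, 6.05 ± 0.488 in vector, 5.27 ± 1.60 in calcification and 4.42 ± 1.14 in control (SD, n = 3 each). Apoo, a subunit of the mitochondrial complex that shapes the cristae, averaged 6.29 ± 1.31 FPKM in the libraries labelled Klotho, 5.70 ± 0.804 in vector, 5.14 ± 0.634 in calcification and 3.97 ± 1.07 in control.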
